A study of Mus musculus with 8 samples.

Results

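Laminins and nidogens, the glycoproteins that lay down the first sheet of a basement membrane, were examined in the anchorage dependent (AD) and anchorage independent (AI) phenotypes of Neuro2a cells. The genes were Lama1, Lama2, Lama3, Lama4 and Lama5 (α chains), Lamb1 and Lamb2 (β chains), Lamc1 (γ1 chain), Nid1 and Nid2. They were chosen by name, as the transcript clusters that carry one of these symbols alone, and all 10 were measured, of 19938 genes with such a cluster. A transcript cluster is a set of array probes summarized as 1 signal, and each of the 10 genes has 1 single-symbol cluster. Of all 35556 clusters, 21789 carry a single gene symbol. Shares of all clusters given below are over all 35556 unless said otherwise, and so are not shares of genes. Neuro2a is an established mouse neuroblastoma line of strain A/J background (AJ in the labels). Total RNA of each phenotype was hybridized to 4 Affymetrix mouse gene arrays, 8 in all. AD cells had grown attached in DMEM with fetal bovine serum, and AI cells as floating tumorspheres without serum, in NeuroCult medium for neural stem cells, to which EGF, bFGF and heparin had been added. Both phenotypes derive from 1 line with no transgene or deletion named, and attachment, serum and added growth factors change together, so that they cannot be told apart. The labels call the replicates biological while the methods speak of replicate hybridizations, and the p-values measure only the spread between arrays, which may be technical.

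A laminin is a cross-shaped trimer of an α, a β and a γ chain, joined through a long coiled coil and named by the numbers of its chains, so that laminin-421 holds α4, β2 and γ1. The trimer is assembled inside the cell before secretion. Outside, the tips of the short arms join laminins into a sheet, the globular end of the α chain binds integrins and dystroglycan on the cell, and nidogen bridges the γ1 chain to collagen IV and perlecan. In nerve, the α2, α4 and α5 chains are the ones best known from Schwann cell basement membranes, and the β2 chain from the neuromuscular synapse. Attachment to such matrix is what keeps many cells from anoikis, the death that follows detachment.

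The 4 laminin chains with a signal above the array median were all lower in AD cells than in AI cells, whereas nidogen 1 was higher. Lama4 fell 1.62-fold in AD cells and Nid1 rose 1.87-fold. Lama5, Lamb2 and Lamc1 were 1.42-fold, 1.38-fold and 1.20-fold lower in AD cells, which is past the adjusted p but under the fold required of a call. Lama1, Lama2, Lama3, Lamb1 and Nid2 were dim in both phenotypes, below the median of each of the 8 arrays. A gene is called where its adjusted p (limma, Benjamini-Hochberg over all 35556 transcript clusters) is under 0.05 and the phenotypes differ at least 1.5-fold, and log2 ratios are AD over AI throughout. By this rule 1 of the 10 genes was called higher and 1 lower, against 1.39% of all clusters called higher and 2.53% called lower. With no bound on the fold, 1 of the 10 was higher and 4 were lower in AD cells at an adjusted p under 0.05, where 8.5% of all clusters were higher and 9.62% lower. Those 4 were also the 4 that lay above the median on each of the 8 arrays, and of the 16094 clusters that did so, 15.8% were higher and 14.9% lower. The AD and AI arrays did not overlap for 5 of the 10 genes and for 22.1% of all clusters. The median log2 ratio was -0.00 both over the 10 genes and over all clusters. RNA of a whole culture was measured, so fewer cells that express a gene and less of its RNA per cell cannot be told apart.

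**Figure D1:**
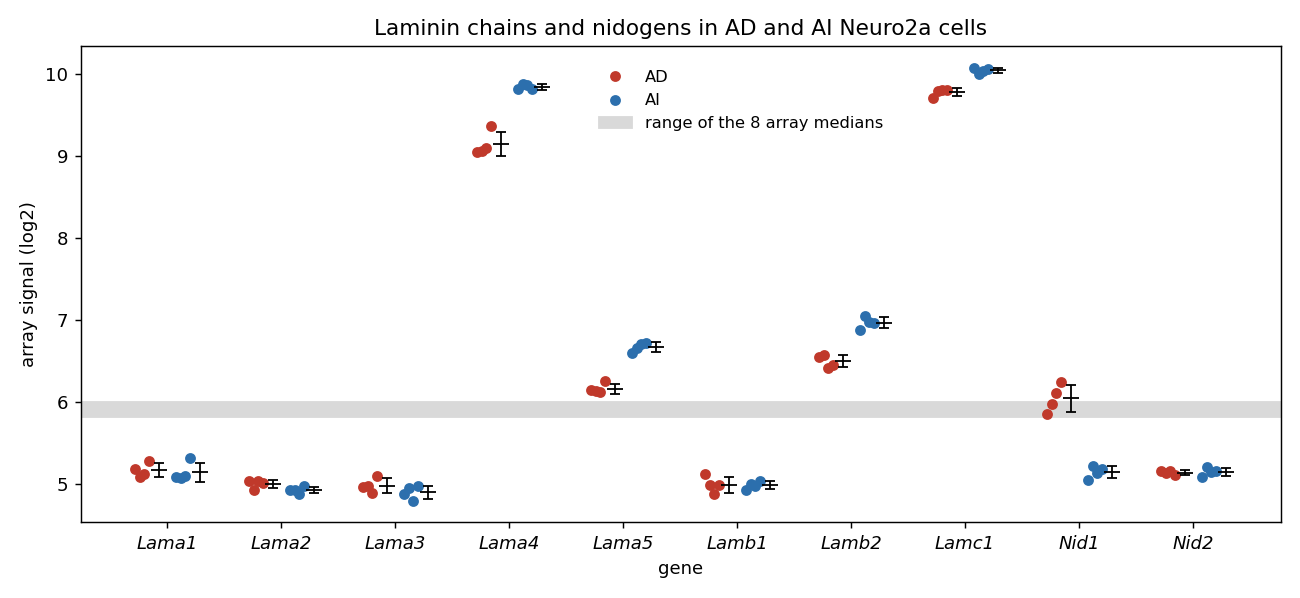
Array signal (log2) of the 5 α chain, 2 β chain, 1 γ chain and 2 nidogen genes in AD (red) and AI (blue) Neuro2a cells. Each dot is an array, 4 per phenotype, the black bars are means with SD, and the grey band spans the medians of the 8 arrays; Lama4 and Lamc1 lie far above the band, Lama5 and Lamb2 just above it, and Nid1 reaches it in AD cells alone.

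Lama4 encodes the α4 chain, a short α chain found in vessels, muscle and nerve, which lacks the short arm of its relatives. Its signal was 9.05, 9.06, 9.09 and 9.36 log2 in AD cells, against 9.81, 9.87, 9.86 and 9.81 log2 in AI cells. The AI arrays lay within a narrow range and AD replicate 4 stood above the other AD arrays, but the phenotypes did not overlap. The means were 9.14 ± 0.15 log2 in AD cells, against 9.84 ± 0.036 in AI cells (SD, n = 4 each), which gave a log2 ratio of -0.70 (standard error 0.075, 95% interval -0.87 to -0.53, adjusted p = 0.000345 from limma). Without AD replicate 4 the log2 ratio of Lama4 was -0.77. That replicate also stood apart from the other AD arrays over all clusters, with correlations of 0.991 to 0.993 to them, where the other AD arrays had 0.995 to 0.996 among themselves.

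Lama5 encodes the α5 chain, a full-length chain of many adult basement membranes and a strong ligand of integrins. Its signal was 6.14, 6.12, 6.12 and 6.25 log2 in AD cells, against 6.59, 6.66, 6.70 and 6.72 in AI cells. Every AD array lay below every AI array, and all were modestly above the array median, by 0.24 to 0.33 log2 in AD cells, against 0.67 to 0.74 in AI cells. The log2 ratio of Lama5 was -0.51 (standard error 0.056, 95% interval -0.63 to -0.38, adjusted p = 0.000372 from limma), and the interval reaches past 1.5-fold. Background may limit AD arrays this near the median, so the ratio is not known exactly. The other 3 α chains are the α1 chain of embryonic basement membranes, the α2 chain of muscle and peripheral nerve, and the α3 chain of epithelia. The signal of Lama1 ran from 5.07 to 5.27 log2 in AD cells, against 5.07 to 5.31 in AI cells. Lama2 ran from 4.92 to 5.03 log2 in AD cells, against 4.87 to 4.97 in AI cells, and Lama3 from 4.88 to 5.10 log2 in AD cells, against 4.79 to 4.97 in AI cells. For each of these 3 genes the phenotypes overlapped. Their log2 ratios of 0.02, 0.07 and 0.08 had adjusted p = 0.878, 0.386 and 0.463 (limma), and their 95% intervals kept within -0.14 and 0.23. A cluster below the array median may be limited by background, so these intervals do not bound a change in RNA that the probes do not read.

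Lamb2 encodes the β2 chain, which at the neuromuscular synapse takes the place of the more widespread β1 chain. Its signal was 6.54, 6.57, 6.41 and 6.45 log2 in AD cells, against 6.88, 7.04, 6.97 and 6.95 in AI cells. The phenotypes did not overlap, with the AI arrays all higher. The log2 ratio of Lamb2 was -0.47 (standard error 0.060, 95% interval -0.60 to -0.33, adjusted p = 0.000832 from limma). Lamb1, the gene of the β1 chain, lay at 4.87 to 5.11 log2 in AD cells, against 4.92 to 5.03 in AI cells, -1.02 to -0.78 log2 relative to the array medians. Its log2 ratio was 0.01 (95% interval -0.13 to 0.15, adjusted p = 0.950 from limma). To compare the 2 β chains, their signals were subtracted within each array. The Lamb2 signal minus the Lamb1 signal was 1.51 ± 0.074 log2 in AD cells, against 1.98 ± 0.051 in AI cells (SD, n = 4 each), a difference of -0.48 log2 between the phenotypes. The arrays of the phenotypes did not overlap (two-sided exact permutation, p = 0.0286, which is the smallest that 4 arrays against 4 allow, and also 0.0286 after Benjamini-Hochberg adjustment over the 2 such comparisons made). This shows that the β chain signals changed unequally, and it rests almost wholly on Lamb2, since Lamb1 was dim in both phenotypes.

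Lamc1 encodes the γ1 chain, the γ chain of most laminins and the one that nidogen binds. Its signal was 9.71, 9.79, 9.80 and 9.80 log2 in AD cells, against 10.07, 10.00, 10.03 and 10.06 in AI cells. The spread within a phenotype was small, so that the phenotypes parted although the difference was the smallest of the 4 chains above the array median. The log2 ratio of Lamc1 was -0.27 (standard error 0.050, 95% interval -0.38 to -0.15, adjusted p = 0.00601 from limma). After each array was centred on its own median it was -0.19, with an adjusted p = 0.0523 from limma, and 3 of the 10 genes in place of 4 were then lower in AD cells at an adjusted p under 0.05. The same centring turned the balance of all called clusters, with 47.0% of them lower in AD cells, against 64.5% as deposited, and it moved the median log2 ratio of all clusters to 0.08.

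**Figure D2:**
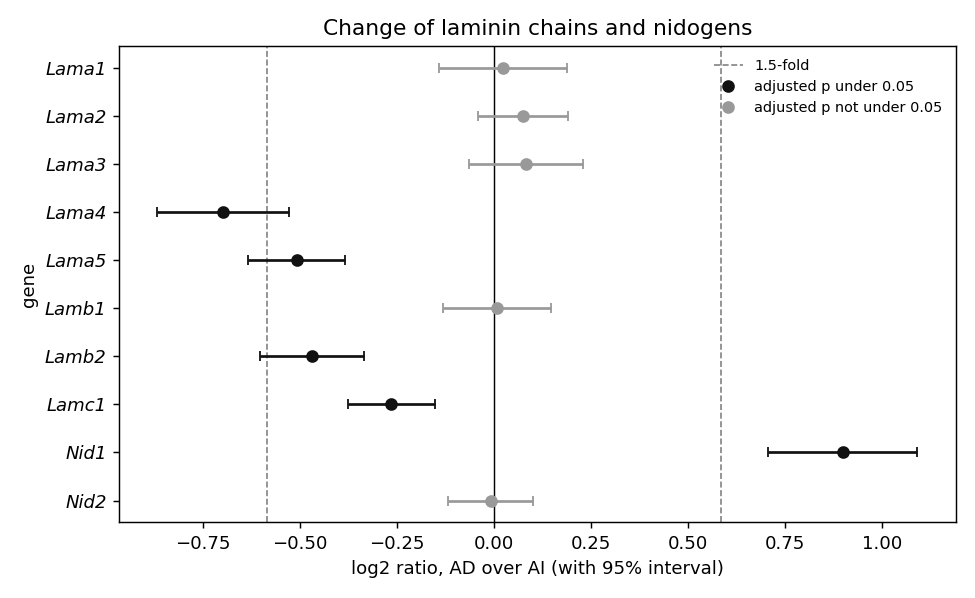
Log2 ratio (AD over AI) of each gene with its 95% interval from limma, over 4 AD and 4 AI arrays. Black marks an adjusted p under 0.05, grey the rest, and the dashed lines mark 1.5-fold in either direction; Lama4 at -0.70 and Nid1 at 0.90 lie beyond the lines, and Lama5, Lamb2 and Lamc1 lie between the lines and 0.

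Nid1 encodes nidogen 1, also called entactin, the rod-like linker between laminin and collagen IV. Its signal was 5.85, 5.96, 6.11 and 6.24 log2 in AD cells, against 5.04, 5.22, 5.13 and 5.17 log2 in AI cells. Every AD array lay above every AI array, with a wider spread in AD cells. The means were 6.04 ± 0.17 log2 in AD cells, against 5.14 ± 0.074 in AI cells (SD, n = 4 each), which gave a log2 ratio of 0.90 (standard error 0.085, 95% interval 0.71 to 1.09, adjusted p = 0.000171 from limma). In AD cells 3 of the 4 arrays lay above their array median, and in AI cells all 4 lay below it, at -0.87 to -0.70 log2 relative to the median, so the ratio is not known exactly. Nid2, its close relative with overlapping function, lay at 5.10 to 5.16 log2 in AD cells, against 5.09 to 5.20 in AI cells. The log2 ratio of Nid2 was -0.01 (95% interval -0.12 to 0.10, adjusted p = 0.931 from limma), with a sign that turned under other scalings. The Nid2 signal minus the Nid1 signal within an array was -0.91 ± 0.19 log2 in AD cells, against 0.00 ± 0.031 in AI cells (SD, n = 4 each). That difference of -0.91 log2 was larger than the spread of either phenotype (two-sided exact permutation, p = 0.0286, and 0.0286 after Benjamini-Hochberg adjustment over the 2 comparisons). It rests almost wholly on Nid1 and repeats its ratio, since Nid2 lay below the median on all 8 arrays, and it is likewise not known exactly, with Nid1 below the median on the AI arrays.

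The regions just before the annotated starts are shown for those genes whose arrays did not overlap and that have a window in the reference, together with Lamb1 as the dim β chain beside Lamb2. RefSeq on mouse assembly GRCm38.p6 gave a window for 5 of the 10 genes (Lama2, Lama5, Lamb1, Lamb2 and Nid1). Each run holds the 250 bases that end at the base before the start, 5′ to 3′ on the gene's own strand. Capitals mark short motifs found on either strand: CACGTG, the E-box that Myc proteins bind, CAGGTG, an E-box of E proteins, CAGAC, the short Smad element, GGGCGG, the GC box, and TATAAA, the TATA box. The windows are chr13:13437352-13437601 on the plus strand for Nid1, chr2:180225860-180226109 on the minus strand for Lama5, chr9:108479612-108479861 on the plus strand for Lamb2 and chr12:31265043-31265292 on the plus strand for Lamb1.
Nid1: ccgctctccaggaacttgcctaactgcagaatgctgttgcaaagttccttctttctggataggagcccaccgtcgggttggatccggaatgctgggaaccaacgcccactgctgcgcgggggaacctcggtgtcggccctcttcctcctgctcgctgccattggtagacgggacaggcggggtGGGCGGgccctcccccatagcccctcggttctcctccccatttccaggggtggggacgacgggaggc
Lama5: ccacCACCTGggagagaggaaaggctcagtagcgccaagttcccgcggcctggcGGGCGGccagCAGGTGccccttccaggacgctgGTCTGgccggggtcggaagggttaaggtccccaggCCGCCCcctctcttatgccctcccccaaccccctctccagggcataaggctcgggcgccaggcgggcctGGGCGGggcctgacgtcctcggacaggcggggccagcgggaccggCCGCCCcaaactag
Lamb2: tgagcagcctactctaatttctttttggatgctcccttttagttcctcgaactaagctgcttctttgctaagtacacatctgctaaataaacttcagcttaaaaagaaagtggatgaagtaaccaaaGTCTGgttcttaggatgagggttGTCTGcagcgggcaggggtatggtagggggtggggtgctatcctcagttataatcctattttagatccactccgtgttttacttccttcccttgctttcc
Lamb1: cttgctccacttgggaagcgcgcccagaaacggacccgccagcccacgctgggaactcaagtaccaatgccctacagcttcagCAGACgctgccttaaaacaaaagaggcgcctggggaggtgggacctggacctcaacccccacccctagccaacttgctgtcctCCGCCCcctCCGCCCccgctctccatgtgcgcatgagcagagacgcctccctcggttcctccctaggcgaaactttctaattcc

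The window of Lama5 was the richest in G and C, at 72.4%, followed by Nid1 at 64.4% and Lamb1 at 62.0%, while Lamb2 had 43.6%, where the median of 32536 windows was 52.4%. Lama5 held 4 GC boxes, Lamb1 held 2 and Nid1 held 1, and 33.0% of all windows held at least 1. The E-protein motif was found in the Lama5 window alone of the 5 (2 matches), and in 17.3% of all windows. The Smad element occurred 2 times in Lamb2, once each in Lama2, Lama5 and Lamb1, and not in Nid1, and 42.2% of all windows held it. Neither CACGTG, held by 6.04% of all windows, nor TATAAA, held by 12.3%, was in any of the 5. Lama5 and Lamb2, both lower in AD cells, thus had windows that differed in base composition and in motifs. A match of letters is a description and no binding site.

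Of 14 laminin trimers known from tissues, 2 were allowed in AD cells and the same 2 in AI cells: laminin-421 and laminin-521. A chain was counted where all 4 arrays of a phenotype lay above their array median. This held for Lama4, Lama5, Lamb2 and Lamc1 in both phenotypes. A trimer was allowed where each of its chains was counted. Of the trimers that were not allowed, laminin-411 and laminin-511 had Lamb1 below this bound. For laminin-121, laminin-221 and laminin-321 it was the α chain, and for laminin-423 and laminin-523 it was Lamc3. A chain below the bound is not shown to be absent, since background may limit its signal, so these trimers are not excluded. The γ3 chain gene Lamc3, at 5.18 to 5.49 log2 in AD cells, against 5.15 to 5.41 in AI cells, and the epithelial β3 chain gene Lamb3, at 5.02 to 5.23 log2 in AD cells, against 5.01 to 5.15 in AI cells, lay below every array median, with log2 ratios of 0.13 and 0.08 (adjusted p = 0.362 and 0.454 from limma). The bound matters, since with the 75th percentile of each array in its place Lama4 and Lamc1 stayed above it and no trimer was allowed in either phenotype. Signals of different genes cannot be set against each other on an array, so which chain limits a trimer was not read from these levels.

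The log2 ratios of the chains of laminin-421 and laminin-521 differed in size, from -0.70 for Lama4 to -0.27 for Lamc1. Within an array, the Lama4 signal minus the Lamc1 signal was -0.66, -0.73, -0.71 and -0.44 log2 in AD cells, against -0.26, -0.12, -0.17 and -0.25 in AI cells. The phenotypes did not overlap, and the α4 to γ1 difference was -0.43 log2 (standard error 0.076) in AD cells relative to AI cells. The Lama5 signal minus the Lamc1 signal was -3.69 to -3.55 log2 in AD cells, against -3.48 to -3.33 in AI cells, also without overlap, with a difference of -0.24 log2 (standard error 0.050) between the phenotypes. For Lamb2 minus Lamc1 the arrays overlapped, from -3.39 to -3.17 log2 in AD cells, against -3.19 to -2.95 in AI cells, and the difference was -0.20 log2 (standard error 0.072). These 3 comparisons were chosen after the values were seen and were not tested.

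**Figure D3:**
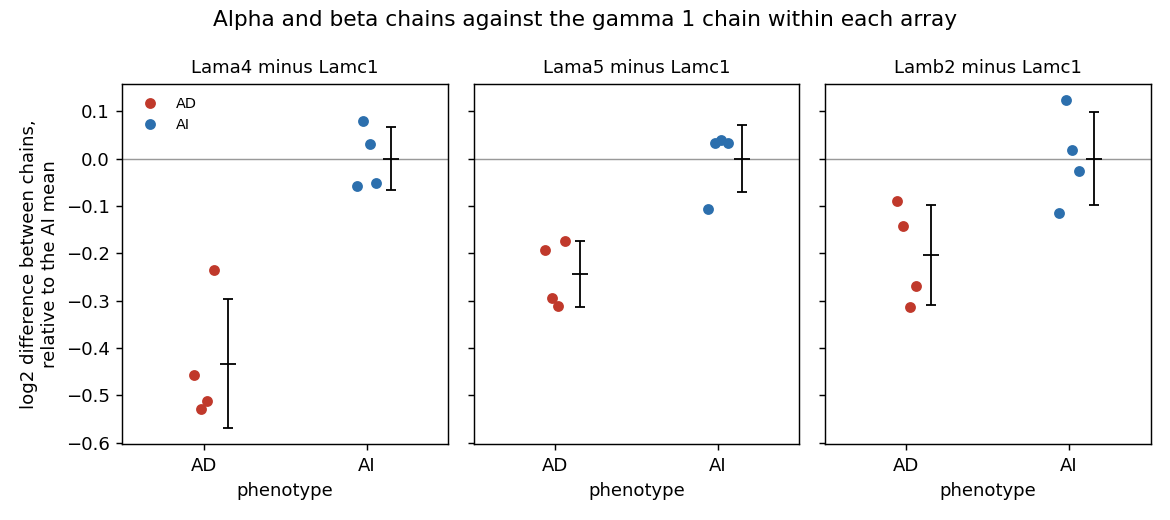
Log2 signal of Lama4, Lama5 and Lamb2 minus that of Lamc1 in each array, plotted relative to the mean of the 4 AI arrays. Dots are arrays, AD (red) left of AI (blue), and black bars are means with SD; AD and AI arrays part for Lama4 and Lama5 and overlap for Lamb2.

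Among genes related to laminins, those called were all lower in AD cells. These are receptors, other basement membrane genes, netrins and other domain relatives, dystroglycan glycosylation genes, proteases and the other laminin chains. Over 5 lists of related genes and the other laminin chains, none of the 56 genes measured of 64 listed was called higher in AD cells, 6 were called lower and 50 were not called, where 1.39% of all clusters were called higher and 2.53% lower. With no bound on the fold, 14 of the 56 were lower in AD cells at an adjusted p under 0.05 and none was higher, beside 9.62% and 8.5% of all clusters. Of the 56, 29 lay above the median on each of the 8 arrays, and among all clusters that did so 14.9% were lower and 15.8% higher. Their median log2 ratio was -0.04, beside -0.00 over all clusters. Median centring removed 3 of the 6 calls (Itga1, Col4a2 and Ntn3), and left 11 genes lower and 4 higher in AD cells at an adjusted p under 0.05. The shares of all clusters above are for the values as deposited and are no measure for these centred counts. With centring 731 of all clusters were called higher and 647 lower, against 495 and 901 as deposited.

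Of 9 laminin receptor genes, Itga3, whose integrin α3β1 binds laminins with α3 or α5 chains, and Itga1, a subunit of a collagen and laminin receptor, were called lower in AD cells, none was called higher and 7 were not called, beside 2.53% of all clusters called lower and 1.39% called higher. Itga3 was 6.38 ± 0.19 log2 in AD cells, against 7.10 ± 0.12 in AI cells (SD, n = 4 each), which gave a log2 ratio of -0.72. Itga1 had a log2 ratio of -0.59, at the edge of the fold, and fell short of it without AD replicate 1 (-0.55), AD replicate 3 (-0.57) or AI replicate 2 (-0.57). Itga2 and Itga7, subunits of a collagen and a laminin receptor, had log2 ratios of -0.55 and -0.48, under 1.5-fold, and are named after their values were seen. The bright receptor genes Itga6, Itgb1 and Dag1 did not pass the test. Itga6, of the laminin receptor α6β1, had -0.08 (95% interval -0.20 to 0.05), Itgb1, the partner of these α subunits, had -0.12 (95% interval -0.23 to -0.00, adjusted p = 0.153 from limma) although its arrays did not overlap, and Dag1, the dystroglycan gene, had -0.05 (95% interval -0.17 to 0.07). Of 9 measured genes that build the laminin-binding sugar of dystroglycan, none was called and none had an adjusted p under 0.05, with log2 ratios from -0.20 to 0.20.

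Of 19 other basement membrane genes, Npnt and Col4a2 were called lower in AD cells, none was called higher and 17 were not called, against the same 2.53% and 1.39% of all clusters. Npnt, the gene of nephronectin, an integrin ligand of basement membranes, was 8.02 ± 0.25 log2 in AD cells, against 9.56 ± 0.060 in AI cells (SD, n = 4 each), 2.90-fold lower. Col4a2, a collagen IV chain, was 8.11 ± 0.074 log2 in AD cells, against 8.76 ± 0.027 in AI cells (SD, n = 4 each), 1.56-fold lower. Agrn, the gene of agrin, which binds both laminin and dystroglycan, was 1.37-fold lower (adjusted p = 0.000589 from limma), and Hspg2, the gene of perlecan, was 1.24-fold lower (adjusted p = 0.0277 from limma), neither reaching 1.5-fold. Nid1, called higher, thus stood opposite in sign to the genes of its ligands Lamc1, Hspg2 and Col4a2, of which Col4a2 alone was called. Of the other collagen IV genes, Col4a1 was lower but not called (log2 ratio -0.44, adjusted p = 0.000249 from limma). Col4a3, Col4a4, Col4a5 and Col4a6 lay below every array median. Their log2 ratios were 0.06, -0.01, 0.04 and -0.04, none with an adjusted p under 0.05. These other collagen IV genes are named after their values were seen. After median centring Col4a2 fell short of the fold (-0.56) and Lamc1 had an adjusted p = 0.0523 from limma. The AI arrays of Nid1 all lay below their median. Of 4 measured genes of netrins and other proteins that share the laminin N-terminal domain, Ntn3 was called lower with -0.63, and fell short of the fold without AD replicate 4 (-0.54) or AI replicate 2 (-0.58). Of 13 proteases that can cut laminins or nidogens, the gelatinase gene Mmp9 was called lower, with 5.74 ± 0.19 log2 in AD cells, against 6.76 ± 0.11 in AI cells (SD, n = 4 each), and 3 of its AD arrays lay below their median, so its 2.03-fold difference is not known exactly.

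**Figure D4:**
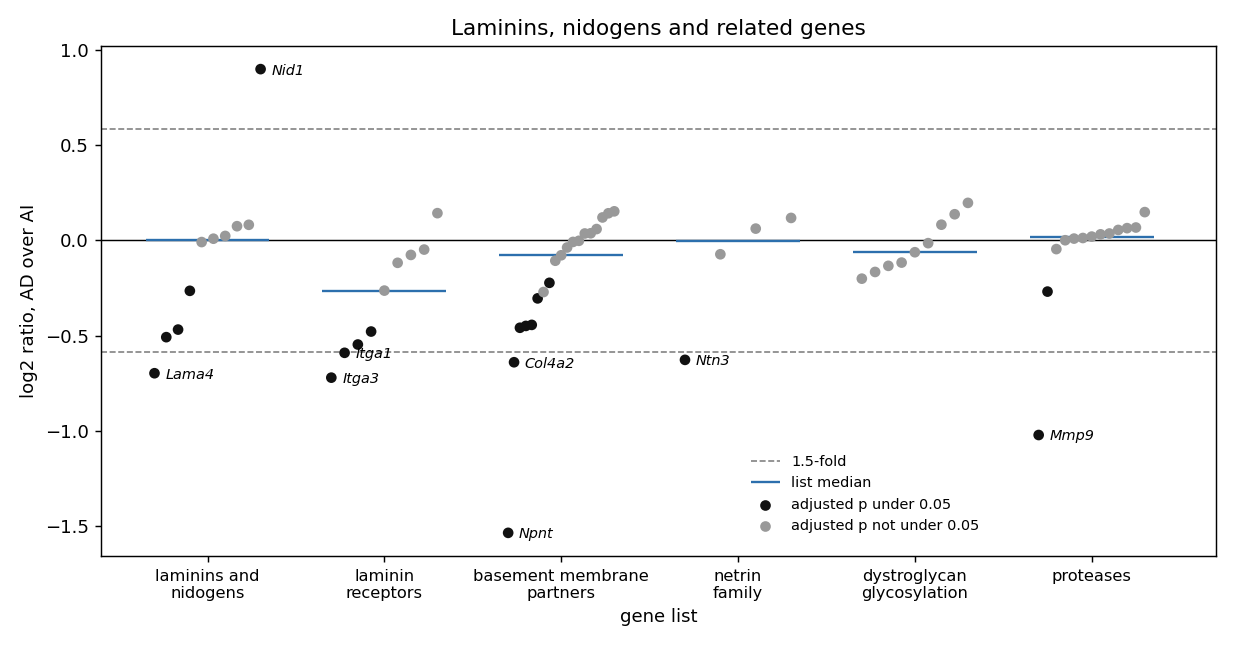
Log2 ratio (AD over AI) of the 10 laminin and nidogen genes and of 5 lists of related genes, 1 dot per gene, black where the adjusted p is under 0.05. Blue lines are list medians, dashed lines mark 1.5-fold and called genes are named; Nid1 is the one called gene above 0.

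The cell type was checked against marker lists. Of 10 measured sympathoadrenal genes, which mark the lineage of neuroblastoma, 9 lay above the array median on all 8 arrays, and Dbh, Phox2a and Th were called higher in AD cells (log2 ratios of 3.01, 1.13 and 0.60), where 1.39% of all clusters were. With no bound on the fold, 5 of the 10 were higher at an adjusted p under 0.05, and Chgb, a chromogranin gene, was lower, with a log2 ratio of -0.49. At that bound 8.5% of all clusters were higher and 9.62% lower. Among clusters above the median on all 8 arrays, 15.8% were higher and 14.9% lower. The mean of that list was 9.30 to 9.46 log2 in AD cells, against 8.85 to 8.97 in AI cells. Dbh weighs heavily in these means, as the median log2 ratio over the list was 0.19. None of the 8 fibroblast genes lay above the median on all arrays, and 6 lay below it on all. The mean of the fibroblast list was 5.24 to 5.35 log2 in AD cells, against 5.23 to 5.27 in AI cells. Of the Schwann cell, endothelial and epithelial lists, 2 of 5, 2 of 7 and 1 of 6 measured genes lay above the median on all arrays. The mean of the Schwann cell list was 6.06 to 6.20 log2 in AD cells, against 6.09 to 6.13 in AI cells, that of the endothelial list 5.48 to 5.65 log2 in AD cells, against 5.57 to 5.63 in AI cells, and that of the epithelial list 5.37 to 5.54 log2 in AD cells, against 5.41 to 5.48 in AI cells. Sox10, a defining Schwann cell gene, and Cdh5, a defining endothelial gene, lay below the median on every array. Erbb3 and Egr2 of the Schwann cell list, Pecam1 and Esam of the endothelial list and Krt8 of the epithelial list lay above it on every array. The genes of these lists thus did not go together. No gene of the fibroblast, Schwann cell, endothelial and epithelial lists was called, though Erbb3, a neuregulin receptor of Schwann cells, and Krt8, an epithelial keratin, were lower in AD cells at an adjusted p under 0.05 (log2 ratios of -0.52 and -0.46). These marker genes are all named after their values were seen, Dbh, Phox2a and Th because they were called. The part of these shifts in the laminin and nidogen differences was not tested.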

How the data were processed

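The authors hybridized RNA of 8 samples to Affymetrix gene arrays, 1 array a sample. Partek 6.5 and GCRMA are given in the submitters' processing notes. The methods list 3 normalizations, of which the deposited table holds 1. Its values, as deposited by the authors, are log2 signals of 35556 transcript clusters after background correction and normalization, and were used unchanged. Array medians were 5.82 to 5.92 log2 (AD) and 5.92 to 5.99 log2 (AI). Arrays give no counts, and their number limits the precision.

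Clusters were named from the platform annotation, with 21789 carrying a single symbol, of which 21698 were matched by gene number to RefSeq (GRCm38.p6). Where a related gene has several clusters, the brightest over all arrays was used. The phenotypes were compared over all clusters by limma (version 3.58.1, under R 4.3.3) with lmFit, eBayes and phenotype as the sole term, and single values with exact permutation tests in Python 3.11.15 (scipy 1.17.1, numpy 2.4.6, pandas 2.3.3, plots with matplotlib 3.10.9). Simulated data with known changes were used to test the scripts. Genes, related lists and motifs were chosen by known function with earlier results of these data known. Genes outside the 10 were named by rule as direct partners and called genes, up to 3 per direction and list. Itga2, Itga7, the collagen IV genes other than Col4a2 and the uncalled marker genes were named after their values were seen. They were left out of the check for outlying arrays. The alternatives were other scalings, a filter on dim clusters, other variance models, array weights, a replicate block, other thresholds and leaving out each array.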

Additional observations from a re-analysis of the deposited data

Results flagged for a closer look

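Among 52 sets of 4 arrays (26 genes named by rule, in 2 phenotypes), 4 had 1 array far from the other 3 by Dixon's test, which chance alone gives in about 1 of 20 sets. Lama4 in AD replicate 4 lay at 9.36 log2, above the next AD array at 9.09. Lama5 in the same AD array lay at 6.25 log2, above the next at 6.14. Lamc1 in AD replicate 1 lay at 9.71 log2, below the next AD array at 9.79. Lama1 in AI replicate 4 lay at 5.31 log2, above the next AI array at 5.09, with all arrays of that gene below the array median.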

How the results depend on the processing

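Lama4 and Nid1 were called under every alternative fit run, and leaving out 1 array gave log2 ratios of -0.77 to -0.67 for Lama4 and 0.83 to 0.96 for Nid1. Their adjusted p over the alternatives ran from 3.56e-05 to 0.00533 for Lama4 and from 7.08e-05 to 0.00309 for Nid1. The count of the 10 genes called higher was 0 at a fold of at least 2, and the count called lower was 0 there and 4 with no fold threshold. Over all clusters 81 were called higher and 173 lower at a fold of at least 2, and 3024 and 3420 with no fold threshold. The related genes called lower were 3 after centring on the array median and 4 to 6 without 1 array. The trimers allowed were 0 in AD cells and 0 in AI cells with the 75th percentile as bound. Genes near 0 changed sign: Nid2 was 0.0081 with array weights, 0.067 after centring, 0.0047 after quantile normalization and -0.028 to 0.0089 without 1 array, Lama1 was -0.014 to 0.081 without 1 array and Lamb1 was -0.033 to 0.046 without 1 array.

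Same-numbered arrays did not deviate together (correlations from -0.17 to 0.08 over 4 pairs, and 1 of 8 arrays correlated best with its own number), so the numbers were not taken as pairs. With the replicate block 1 of the 10 genes was called higher and 1 lower, and 476 and 876 of all clusters. The Lamb2 minus Lamb1 difference of -0.48 log2 and the Nid2 minus Nid1 difference of -0.91 log2 then had p = 0.125 in an exact sign-flip test, the smallest that 4 pairs allow. Without 1 array they were -0.51 to -0.45 and -0.98 to -0.83, where the exact permutation test cannot go below 0.0571. A filter on the dimmest 40% of clusters kept 5 of the 10 genes. Each of the 10 genes has 1 cluster, so averaging clusters changed nothing. Signal over background limits the 5 dim genes and Nid1 in AI cells, and may limit Lama5 in AD cells.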
